A study of Mus musculus with 8 samples.

Results

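Gene deserts are long stretches of chromosome in which no protein-coding gene starts. Here a desert was a run of at least 20 consecutive 50 kb bins of a mouse autosome (assembly GRCm38, which mm10 names) in which no protein-coding gene of GENCODE vM21 starts, beyond the first 3 Mb of the chromosome. The rule used no contact data. It found 359 deserts, between 6 and 32 on each of the 19 autosomes, with 12577 of the 48088 autosomal bins (26.2%) and a summed length of 629 Mb. Their median length was 1.45 Mb and the longest was 5.35 Mb. Each desert is called here by the genes whose starts flank it, its edge genes.

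Most gene-poor, AT-rich chromatin of a mammalian nucleus belongs to the B compartment, which lies largely at the nuclear periphery and around nucleoli, is replicated late and contacts other B chromatin more than the active A compartment. Some deserts beside developmental regulators instead hold distant enhancers and are active where the gene is. Borders between domains of contact, at which insulation is measured, are often held by the protein CTCF together with cohesin.

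The assay was in situ Hi-C: crosslinked nuclei are digested with MboI, ends that lie close together are ligated, and each ligated fragment is sequenced as a read pair. There were 8 libraries in 4 groups of 2 replicates, all of splenic B cells isolated by negative selection, labelled with CellTrace Violet, a dye that dilutes at each division, and stimulated with lipopolysaccharide (LPS) at 25 µg/ml. The groups were 3 h, 10 h and 33 h (imminent division) from C57BL/6 mice, and 33 h (pre S-phase) from C57BL/6 FUCCI mice, a reporter strain in which cell cycle phase is read from fluorescence. Per the study's methods the mice were males of 6 to 12 weeks, and the activated cells were sorted as undivided. The pre-S cells were further gated on the reporter, so strain and gate differed together with that group and cannot be told apart from it. No gene expression was measured in these files, so the B cell identity was not checked against markers.

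The deserts differed from the rest of the autosomes in sequence. Desert bins had a mean GC content of 38.7% and 37.7% repeats, against 43.1% and 31.6% in the other bins. They held as many MboI sites (126 against 125 per bin). Matches to the CTCF core motif (both strands) lay in 9.56% of desert bins and 24.5% of the others. Coding gene bodies reached into many deserts from their edges and covered over 50% of 70 deserts, but under 10% of 195. Noncoding gene starts lay in 327 deserts, and immunoglobulin or T cell receptor gene segments, which the annotation does not count as protein-coding, lay in 3.

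Genes of adhesion and regulators of development stood at an edge more often than coding genes as a whole, though most edge genes were on neither list. Of 20807 coding genes, 648 (3.12%) stood at an edge. Of 176 adhesion and synapse genes 66 did (37.5%), among them the protocadherins Pcdh9, Pcdh17 and Pcdh20 and the teneurins Tenm2, Tenm3 and Tenm4. Of 87 developmental regulators 29 did (33.3%), such as Sox5, Sox9, Meis1 and Foxp1. Of 41 B cell genes 7 did (17.1%), and all are transcription factors or regulators of them: Bcl11a, Ebf1, Ets1, Id2, Mef2c, Myc and Zeb2. These are counts over gene lists, with no test.

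To show what the assay reads in a desert, 120 bases around the MboI site nearest to the centre of 4 deserts are given, for the longest desert (Pcdh20-Pcdh9), the one with the smallest p for stronger contacts at imminent division (Inhba-Mplkip) and 2 whose contacts fell there (Ebf1-Clint1 and Wwox-Maf). They are the plus strand of GRCm38, 5′ to 3′, at chr14:91175184-91175303, chr13:16850443-16850562, chr11:45249491-45249610 and chr8:115074789-115074908. Capitals mark every MboI site.
Pcdh20-Pcdh9: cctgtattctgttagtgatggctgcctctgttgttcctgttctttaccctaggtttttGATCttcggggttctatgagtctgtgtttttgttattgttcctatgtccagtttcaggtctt
Inhba-Mplkip: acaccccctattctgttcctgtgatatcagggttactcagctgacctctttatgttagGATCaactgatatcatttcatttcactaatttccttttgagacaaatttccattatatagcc
Ebf1-Clint1: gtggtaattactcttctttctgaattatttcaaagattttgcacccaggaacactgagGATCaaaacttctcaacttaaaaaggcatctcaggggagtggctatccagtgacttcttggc
Wwox-Maf: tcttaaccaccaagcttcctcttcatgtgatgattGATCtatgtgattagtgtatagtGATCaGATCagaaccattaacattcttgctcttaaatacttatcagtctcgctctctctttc

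At the edges, matches to the core of the CTCF motif were counted. One lay in the 2 bins beside 31.5% of the 707 edges tested and 35.0% of all 46315 borders between neighbouring bins. Of the 100 edges with the lowest insulation score (the strongest insulation, described further on), 51% had one, and of the 100 with the highest, 21%. Among the 15 edges named by the rule, 4 had a match, and 1 match of each is shown with capitals marking it, on the plus strand of GRCm38. A match is only a description of letters, not of binding. They lie at chr5:20822210-20822251, chr4:31953706-31953747, chr2:158828319-158828360 and chr1:75559661-75559702, and the match itself is on the plus strand at Phtf2 and on the minus strand at the other three.
Phtf2 edge of Magi2-Phtf2: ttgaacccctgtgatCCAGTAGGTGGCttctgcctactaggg
Map3k7 edge of Epha7-Map3k7: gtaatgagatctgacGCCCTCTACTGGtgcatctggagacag
Dhx35 edge of Dhx35-Gm826: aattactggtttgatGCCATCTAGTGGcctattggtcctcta
Slc4a3 edge of Slc4a3-Epha4: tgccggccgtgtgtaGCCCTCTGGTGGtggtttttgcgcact

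Totals ran from 88703088 to 218945191 read pairs per library, of which 2994079 to 10062324 joined different bins of one desert. These made up 5.46% to 8.27% of the cis read pairs between different bins. One library stood apart. The second imminent division library had 3.74% of its read ends on X, against 2.39% to 2.84% in the other 7, and 0.0490% on Y, against 0.0804% to 0.123%. The study's methods name male mice, and a raised X share beside a lowered Y share goes against that for this library. Whether it holds cells of other mice was not tested. Only autosomes were used below, and the main counts called at imminent division are also given without it. All tests were edgeR quasi-likelihood tests over the whole autosomal table (limma for compartments), called at a false discovery rate (FDR) of 5%. Log2 changes are the first group over the second. The 3 comparisons that involve 10 h share the same 10 h libraries, as those of the 33 h groups share theirs.

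Pooled over distances, contacts inside deserts were weaker than those of other chromatin relative to expectation. This order turned at long distances in the 33 h libraries and, further out, in the second 3 h library. At 1500 kb apart the 33 h libraries had 1.26 inside and 0.997 outside, 1.15 and 1.03 (imminent division), and 1.17 and 1.02, 1.13 and 1.03 (pre-S). In the 4 earlier libraries contacts inside stayed below those outside at that distance. At 2000 kb the second 3 h library had 1.12 inside and 1.08 outside, while the first 3 h library and both 10 h libraries were still lower inside. Contact strength was the observed number of read pairs over the number expected from the mean autosomal bin pair at each distance in that library (observed/expected). Pooled over deserts it was 0.652 and 0.723 (3 h), 0.681 and 0.692 (10 h), 0.816 and 0.747 (imminent division), and 0.839 and 0.822 (pre-S). All 4 libraries of 33 h were above all 4 earlier ones. The pooled value of the segments outside deserts was 1.14, 1.11, 1.13, 1.12, 1.08, 1.11, 1.08 and 1.08 in the same order, and the median desert stood at 0.597, 0.666, 0.627, 0.639, 0.772, 0.705, 0.780 and 0.773.

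Deserts also gave fewer read pairs with other chromosomes. Their interchromosomal coverage, relative to the mean bin, was 0.696, 0.738, 0.742, 0.748, 0.783, 0.728, 0.857 and 0.845. Once the expectation also held the coverage of both bins, contacts inside deserts were above expectation in every library, at 1.39, 1.37, 1.28, 1.28, 1.38, 1.48, 1.17 and 1.18. On that scale the pre-S libraries were the lowest, so the place of pre-S in the order depends on whether coverage is counted.

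**Figure D1:**
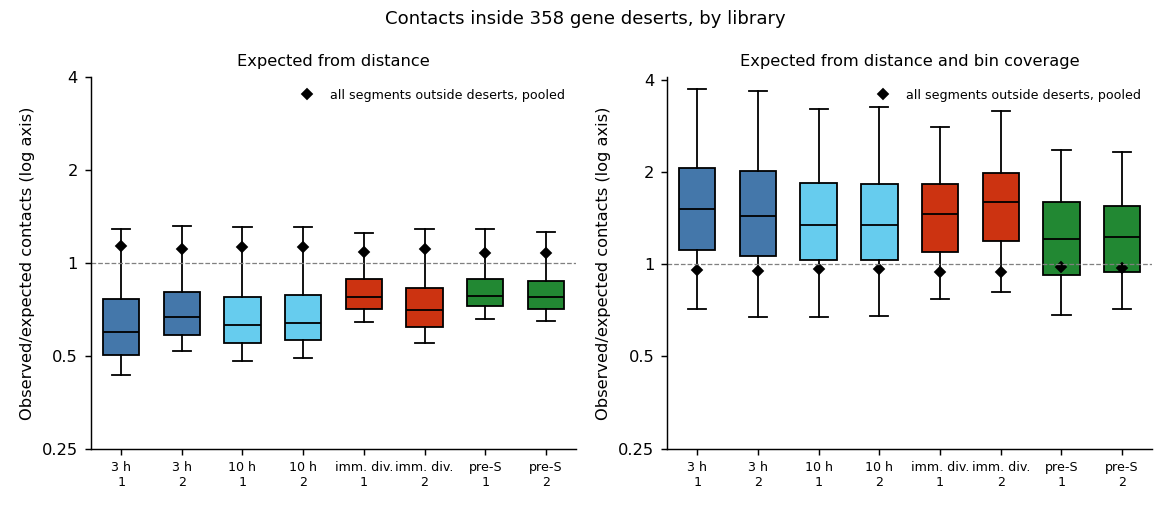
Observed over expected contacts (log axis) inside 358 deserts in each of 8 libraries, with the expectation from distance (left) or from distance and bin coverage (right). Boxes give quartiles with the median as a line, whiskers the 5th and 95th percentiles, and diamonds the pooled value of all segments outside deserts; on the left the median desert rises from 0.597 at 3 h 1 to 0.780 at pre-S 1, and on the right the pre-S libraries are the lowest.

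Deserts that passed the minimum of 10 usable bins numbered 358, among 1543 segments of the autosomes tested together. At 10 h compared with 3 h no desert changed and none of the 1543 segments did (0%), with 12 deserts at an unadjusted p under 0.05 and 4 called by DESeq2. At imminent division contacts rose inside 188 deserts and fell inside 12 compared with 10 h, where 50.6% of all segments were called (29.4% higher, 21.2% lower). The median log2 change was 0.22 over deserts and 0.03 over all segments. At pre-S contacts rose inside 269 deserts and fell inside 13 compared with 10 h, against 68.3% of all segments (35.9% higher, 32.4% lower), with medians of 0.31 and -0.00, a direction that turned to -0.18 with bin coverage in the expectation. Between imminent division and pre-S a single desert was called, of 0.0648% of all segments, with 32 deserts at an unadjusted p under 0.05 and 11 called by DESeq2.

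The counts rested on few libraries. Without the first 10 h library no desert was called at either 33 h group, with 126 and 247 deserts at an unadjusted p under 0.05. Dropping the second gave 3 for imminent division and 207 for pre-S. Dropping the first pre-S library gave 113 and 0, dropping the second gave 111 and 206, and dropping the first imminent division library gave 35 and 295. Without the second imminent division library, which stood apart, 269 were called at imminent division (251 higher, 18 lower) and 296 at pre-S. A group left with 1 library was assumed to vary like the others.

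The direction at pre-S also depended on the expectation. With bin coverage in it, contacts inside deserts rose in 179 and fell in 32 at imminent division (64.9% of all segments called, desert median 0.12), but at pre-S they rose in 39 and fell in 201 (55.8%, median -0.18). On this scale 5 rose and 151 fell from 3 h to 10 h (24.4%), and 301 were higher and 11 lower at imminent division than at pre-S (71.7%). The change in contacts went with base composition. Across 358 deserts Spearman's rho of the log2 change with GC content was -0.76 at imminent division and -0.90 at pre-S, and with coverage in the expectation 0.18 and 0.70. These are descriptions over deserts that share libraries. When each library's trend of observed/expected contacts on GC content was removed, 55 deserts were higher and 69 lower at imminent division (median -0.00), and 45 and 51 at pre-S (0.02), while of all segments 41.3% (16.7% and 24.6%) and 36.9% (14.3% and 22.6%) were called. Whether base composition or coverage had a part in the changes beyond this was not tested.

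**Figure D2:**
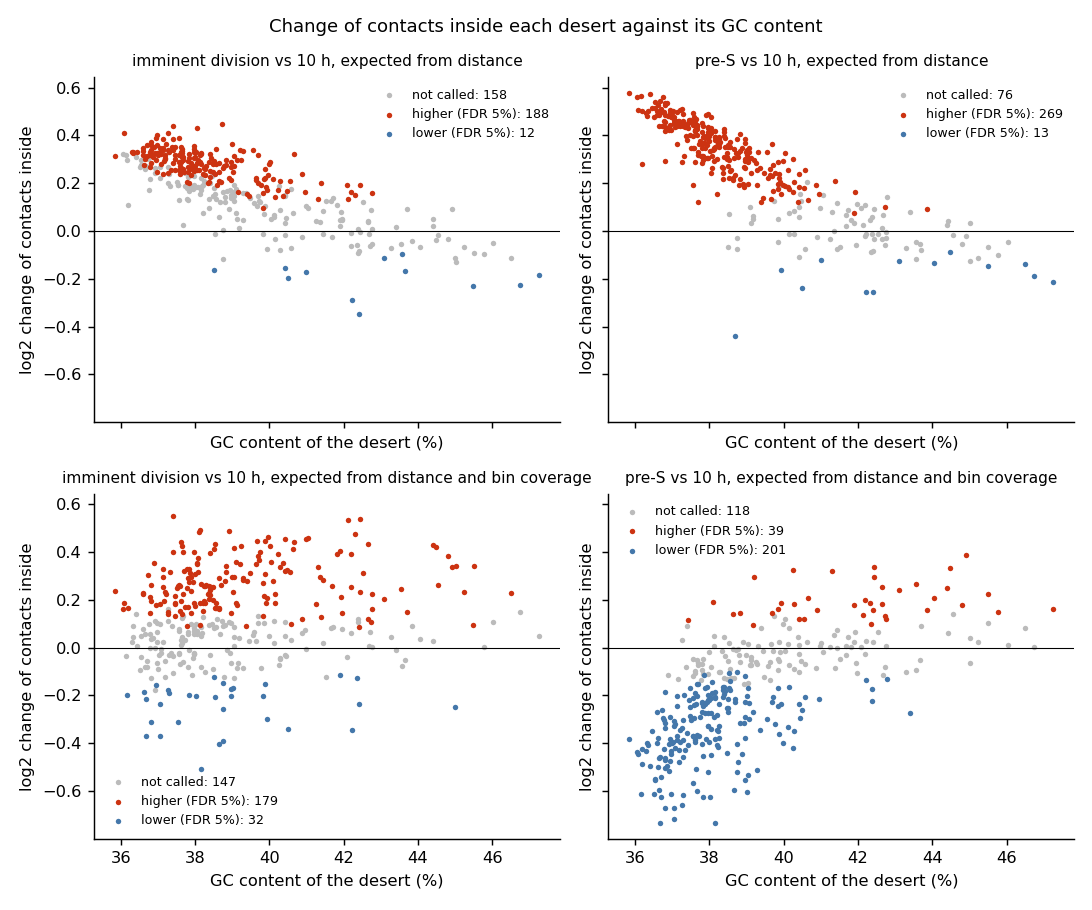
Each point is 1 of 358 deserts, with its GC content (%) and the log2 change of contacts inside it at imminent division (left) or pre-S (right) against 10 h, for the expectation from distance (top) or distance and bin coverage (bottom). Red points were higher and blue points lower at an FDR of 5%; the AT-rich deserts rise most in the top panels (rho -0.76 and -0.90), and at pre-S they fall most once coverage is in the expectation (rho 0.70).

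Among the 120 deserts lowest in GC (35.9% to 37.8%), contacts rose inside 86 at imminent division and all 120 at pre-S, with median log2 changes of 0.30 and 0.45. Among the 120 highest in GC (39.6% to 47.3%), 33 and 39 rose, with medians of 0.06 and 0.06. Deserts that lay wholly in the B compartment numbered 221, of which 125 rose and 3 fell at imminent division and 187 rose and 1 fell at pre-S. With coverage 9 of them rose and 146 fell at pre-S (median -0.25), and with the GC trend removed 28 rose and 16 fell. Of the 34 mostly in A, 6 rose and 7 fell at imminent division, and 6 rose and 8 fell at pre-S, with medians of -0.02 and -0.07. Coverage in the expectation gave 15 and 11, then 14 and 7 (medians 0.03 and 0.02), and removal of the GC trend 2 and 18, then 2 and 16 (medians -0.11). The difference between A and B deserts was not tested.

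Grouped by their edge genes, deserts beside adhesion and synapse genes were called higher at pre-S in most cases with the expectation from distance, and lower in most cases with coverage in it. Of 89 such deserts 47 rose and none fell at imminent division, and 83 rose and none fell at pre-S, with medians of 0.26 and 0.39. Of all deserts tested, 52.5% rose at imminent division and 75.1% at pre-S. With coverage 1 rose and 71 fell at pre-S (median -0.31), and with the GC trend removed 10 rose and 12 fell. Of 29 beside developmental regulators 12 rose and 2 fell, then 17 rose and 3 fell. Coverage in the expectation made the pre-S counts of these 7 and 11 (median -0.07), and removal of the GC trend gave 4 and 4, then 7 and 3. Of 8 beside B cell genes 2 rose and 2 fell, then 2 rose and 3 fell, with medians of -0.06 and -0.07. Removal of the GC trend gave 0 rising and 5 falling, then 0 and 6 (medians -0.23 and -0.20). Of the 55 deserts of 2.5 Mb or more, 40 rose at imminent division and 53 at pre-S. With coverage 19 of these 55 rose and 7 fell at imminent division (median 0.03, from 0.29), and 0 rose and 46 fell at pre-S (median -0.38). With the GC trend removed 10 rose and 11 fell, then 5 rose and 9 fell. Differences between these groups were not tested, and the groups differ in GC content too. The rule's length limit had no visible step: the 25 runs of 19 bins had median contacts of 0.673, 0.743, 0.699, 0.733, 0.784, 0.747, 0.770 and 0.746 in the 8 libraries, and the 26 deserts of 20 bins 0.639, 0.702, 0.677, 0.680, 0.779, 0.722, 0.773 and 0.786.

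The named deserts below were the ones with the smallest p whose libraries did not overlap between groups. Inhba-Mplkip (chr13:16049999-17649915), beside a subunit of activin, had contacts of 0.913, 0.936, 0.853, 0.859, 1.05, 1.04, 1.01 and 0.983, in that order of libraries. Every 33 h library was above every earlier one. Contacts rose by 0.28 (log2, FDR 0.00405) at imminent division and 0.22 (FDR 0.00698) at pre-S, and the latter was -0.073 once the GC trend was removed. Tox-Car8 (chr4:6999829-8199632), beside the T cell development factor Tox, stood at 1.03, 1.05, 0.974, 0.983, 1.17, 1.20, 1.17 and 1.1, and Ccdc54-Cblb (chr16:50599355-51999912), beside a ubiquitin ligase that restrains lymphocyte activation, at 0.831, 0.865, 0.826, 0.840, 0.992, 0.987, 0.976 and 0.955. At imminent division they rose by 0.27 (FDR 0.00578) and 0.25 (FDR 0.0046), with no overlap of 33 h and earlier libraries in either.

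At pre-S the deserts named for a rise were again Inhba-Mplkip, and 2 that are AT-rich and mostly B. Rgs18-Brinp3 (chr1:144800095-146450059) had contacts of 0.614, 0.676, 0.621, 0.637, 0.831, 0.753, 0.870 and 0.857, and rose by 0.46 (FDR 0.00698). With coverage in the expectation its change was -0.46, the opposite direction, and with the GC trend removed it was -0.022. Pot1a-Grm8 (chr6:25850286-28099843), between a gene of telomere protection and a glutamate receptor, had 0.689, 0.750, 0.685, 0.687, 0.937, 0.854, 0.935 and 0.914. It rose by 0.43 (FDR 0.00698), and by 0.12 with coverage.

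Of the deserts named for a fall in contacts, Ebf1-Clint1, Gm765-Foxp1 and Wwox-Maf lay in the A compartment and started high, and Khdrbs3-Fam135b, described further on, did neither. Ebf1-Clint1 (chr11:44649759-45849618), beside a transcription factor that B cells need from their earliest stages, stood at 2.31, 2.27, 2.15, 2.10, 1.64, 1.83, 1.78 and 1.77. Contacts fell by 0.29 (FDR 0.0083) and by 0.26 (FDR 0.00698) at imminent division and pre-S. Gm765-Foxp1 (chr6:98350504-99499855), beside a forkhead factor of B cell development, stood at 1.88, 1.80, 1.89, 1.90, 1.46, 1.51, 1.58 and 1.59, and fell by 0.35 (FDR 0.00405) and by 0.26 (FDR 0.00698). Its change at pre-S was 0.023 with coverage in the expectation. Wwox-Maf (chr8:114449979-115699729), mostly inside the long gene Wwox at a common fragile site, stood at 1.57, 1.56, 1.54, 1.52, 1.25, 1.36, 1.35 and 1.41 and fell by 0.23 (FDR 0.00857) at imminent division. With coverage in the expectation that change was 0.095, the opposite direction.

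Contacts beside Myc were also lower at pre-S, on both sides of the gene. Both deserts lie between the 2 stretches of chromosome 15 in strong contact in the pre-S libraries (described with Khdrbs3-Fam135b below), so at pre-S the group and the genome of its strain cannot be told apart there. Myc-Gsdmc (chr15:61999844-63799782), downstream of the growth regulator Myc, had contacts of 2.37, 2.32, 2.08, 2.09, 1.73, 1.92, 1.81 and 1.73, and fell by 0.20 (FDR 0.0321) and by 0.24 (FDR 0.0123). A1bg-Myc on the other side had 1.71, 1.72, 1.52, 1.53, 1.37, 1.52, 1.40 and 1.32, with changes of -0.08 (FDR 0.219) and -0.16 (FDR 0.0238), and with coverage in the expectation of -0.30 (FDR 1.67e-05) and -0.23 (FDR 0.000352). Of the other deserts beside B cell genes, Zeb2-Acvr2a rose in both, from 1.03 and 1.03 at 10 h to 1.23 and 1.21 at imminent division (0.25, FDR 0.0182) and 1.29 and 1.24 at pre-S (0.30, FDR 0.00745). Ets1-Kirrel3 went from 1.05 and 1.06 to 1.17 and 1.15 (0.14, FDR 0.0155), and at pre-S had 1.12 and 1.1 (0.08, FDR 0.0743). Bcl11a-5730522E02Rik and Id2-Rnf144a, high at 1.53 to 1.72 in all libraries, did not pass at either. Cetn3-Mef2c rose at pre-S, from 1.46 and 1.52 to 1.65 and 1.59 (0.12, FDR 0.0397), and at imminent division its change was 0.03 (FDR 0.605). With coverage in the expectation the calls of Zeb2-Acvr2a and Cetn3-Mef2c were lost (0.06, FDR 0.496, and at pre-S -0.11, FDR 0.197, for the first, and -0.06, FDR 0.239, at pre-S for the other), while Id2-Rnf144a rose by 0.24 (FDR 1.14e-06) and 0.26 (FDR 1.53e-06).

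Runs with antigen receptor gene segments did not pass the test at 33 h with the expectation from distance in the cases described here. Adam6a-Zfp386, with 195 segments of the heavy-chain locus (chr12:113550125-115999780), had 0.742, 0.722, 0.711, 0.724, 0.703, 0.746, 0.759 and 0.728. Olfr1507-Dad1, with 201 segments of the T cell receptor alpha and delta loci (chr14:52499972-54250246), had 0.632, 0.628, 0.606, 0.599, 0.644, 0.670, 0.581 and 0.571. The changes of these runs were 0.01 (FDR 0.788) and 0.12 (FDR 0.0642) at imminent division and 0.05 (FDR 0.286) and -0.07 (FDR 0.266) at pre-S. With coverage in the expectation the heavy-chain run rose at pre-S by 0.10 (FDR 0.0164). Without any run that holds such segments the desert counts from distance alone were the same, 188 higher and 12 lower at imminent division, and at pre-S 269 and 13. On the other scales some of these runs had been called lower. With coverage the lower counts went from 32 to 31 at imminent division and from 201 to 200 at pre-S without them. With the GC trend removed they went from 69 to 68 and from 51 to 49.

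The longest deserts rose at pre-S with the expectation from distance, and fell or did not pass with coverage in it. Pcdh20-Pcdh9, of 5.35 Mb (chr14:88500335-93850522) and wholly in B, had contacts of 0.451, 0.556, 0.509, 0.517, 0.696, 0.582, 0.774 and 0.744, with changes of 0.32 (FDR 0.0511) and 0.56 (FDR 0.00731), both on the scale of distance alone. Tenm3-Aga, of 4.65 Mb, had 0.457, 0.553, 0.502, 0.517, 0.701, 0.589, 0.720 and 0.705, with changes of 0.34 (FDR 0.0329) and 0.48 (FDR 0.00826). In Cntnap5b-Cdh20, Celf4-Pik3c3 and Olfm4-Pcdh17 the pre-S changes were 0.33 (FDR 0.0156), 0.37 (FDR 0.00886) and 0.45 (FDR 0.00847), and at imminent division 0.18 (FDR 0.12), 0.26 (FDR 0.0352) and 0.30 (FDR 0.0399). With coverage in the expectation all 5 turned at pre-S, to -0.61, -0.47, -0.62, -0.10 and -0.48 in the order named. At imminent division the change of Cntnap5b-Cdh20 turned as well, to -0.20 (FDR 0.0218). In all 5, on the scale of distance alone, every 33 h library but the second imminent division one stood clear of every earlier library, and that one did so in 4 of the 5, Cntnap5b-Cdh20 being the exception.

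**Figure D3:**
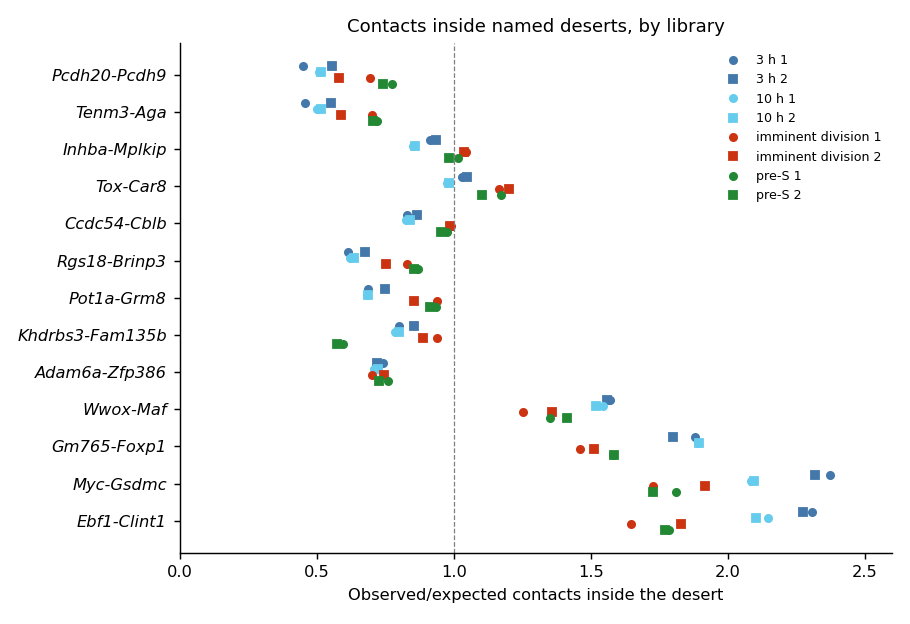
Observed over expected contacts inside 13 named deserts, with 1 point per library (colours for groups, circles for replicate 1 and squares for replicate 2). Contacts inside Ebf1-Clint1 and Myc-Gsdmc start above 2.0 and are lower at 33 h, those of long B deserts such as Pcdh20-Pcdh9 start near 0.5 and are higher (a direction that turns at pre-S, to -0.61 for this desert, with coverage in the expectation), and Khdrbs3-Fam135b is low in the pre-S libraries alone.

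A single desert changed in opposite directions. Khdrbs3-Fam135b (chr15:68950073-71699205) had contacts of 0.80, 0.855, 0.786, 0.799, 0.940, 0.886, 0.597 and 0.573. It rose by 0.20 (FDR 0.016) at imminent division, fell by 0.44 (FDR 0.00698) at pre-S, and was higher by 0.64 (FDR 0.00341) at imminent division than at pre-S. Without either pre-S library this last call was lost. The pre-S libraries also differed here in coverage: the window chr15:69499998-70000051 had 0.460 and 0.433 of the mean coverage there, against 1.20 to 1.3 in the other 6 libraries. The window chr15:70499990-70998854 of the desert had contacts of 11.8 and 11.5 times expectation with chr15:57500095-57999980, more than 10 Mb away, in the pre-S libraries and 0.298 to 0.416 in the others. Both pre-S libraries came from FUCCI mice, so the group and the genome of that strain cannot be told apart in this desert. Without it 187 deserts rose and 12 fell at imminent division, and at pre-S 269 and 12.

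With the expectation from distance alone, contacts were above the earlier groups at all distances given here in pre-S, and at the longer ones at imminent division. With coverage in the expectation, and pooled over distances, the pre-S libraries were the lowest, at 1.17 and 1.18. Neighbouring bins of deserts (50 kb) had contacts of 0.650, 0.707, 0.679, 0.694, 0.766, 0.698, 0.821 and 0.807, where the second imminent division library lay among the earlier ones. From 500 kb to under 1 Mb they were 0.751, 0.849, 0.777, 0.773, 0.985, 0.914, 0.955 and 0.931, and from 1 Mb to under 2 Mb 0.879, 1.01, 0.914, 0.906, 1.21, 1.12, 1.14 and 1.1, with all 33 h libraries above all earlier ones. The slope of log contacts on log distance from 100 to 1000 kb inside deserts was -0.840, -0.836, -0.837, -0.834, -0.776, -0.780, -0.805 and -0.799, so imminent division had the shallowest decay and pre-S lay between it and the earlier groups without overlap. Outside deserts the slopes were -1.05, -1.07, -1.04, -1.01, -1.06, -1.07, -1.01 and -1.0, with no such order.

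**Figure D4:**
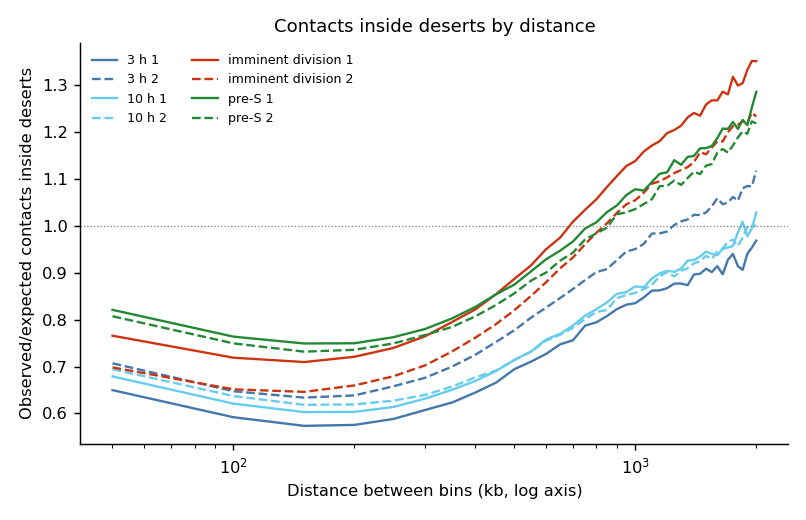
Pooled observed over expected contacts inside deserts (expectation from distance alone) against the distance between bins (kb, log axis), with 1 line per library, solid for replicate 1 and dashed for replicate 2. All lines dip to 150 kb and then rise, from 1 Mb to under 2 Mb the 33 h libraries (1.1 to 1.21) lie above the earlier ones (0.879 to 1.01), and at 50 kb the second imminent division library (0.698) lies among the earlier ones.

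Of single bin pairs a smaller share was called. Of 206841 bin pairs inside deserts, 0 changed from 3 h to 10 h (0.000617% of all 1458187 tested, with 10440 desert pairs at an unadjusted p under 0.05 and 0 by DESeq2). At imminent division 1463 were stronger and 396 weaker (2.03% of all, 0.644% stronger and 1.39% weaker), at pre-S 3068 and 338 (0.6% of all, 0.35% and 0.25%), and 419 and 1565 between imminent division and pre-S (0.372% of all, 0.136% and 0.236%). With coverage in the offsets the pre-S count turned to 167 stronger and 2901 weaker (0.214% and 0.38% of all bin pairs), and that of imminent division against pre-S to 4422 stronger and 182 weaker (0.678% and 1% of all). Of 12137 desert pairs of neighbouring bins, 18% were stronger at pre-S against 2.57% of 34231 such pairs outside, and 0.511% against 2.06% at imminent division. Weaker calls outnumbered the stronger ones at imminent division, at 1.15% inside and 2.45% outside. The counts at 33 h depended on single libraries. At imminent division they dropped to 352 or 146 when a 10 h library was removed (first or second), and to 422 or 1187 when one of that group was. At pre-S the removal of a 10 h library gave 696 or 608 and that of a pre-S library 369 or 1038. For imminent division against pre-S, the counts were 3028 or 330 with an imminent division library removed and 287 or 561 with a pre-S library removed. The direction of these last counts turned too, to 272 stronger and 58 weaker (second imminent division library removed) and to 172 and 115 (first pre-S library removed). DESeq2 called few bin pairs inside deserts, and in the opposite direction: 0 stronger and 15 weaker at imminent division, 17 and 69 at pre-S, and 97 and 5 between them. Over all 1458187 bin pairs it called 64 stronger and 377 weaker, 53 and 114, and 138 and 59 in the same order. Its direction inside deserts was thus that of all bin pairs.

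Contacts between different deserts of one chromosome were read from 1023 pairs of deserts with centres up to 20 Mb apart. Pooled, they stood at 0.980, 1.1, 1.06, 1.06, 1.18, 1.07, 1.29 and 1.25, with both pre-S libraries highest. Between 3 h and 10 h, 5 pairs rose and 8 fell (2.75% of all 17529 segment pairs). At imminent division 338 rose and 107 fell (51.8% of all, 29.7% higher and 22.1% lower), with a median change of 0.08. At pre-S 704 rose and 62 fell (55% of all, 26.4% higher and 28.6% lower), with a median of 0.28 that turned to -0.19 with coverage in the expectation. Between the 33 h groups 85 were higher and 497 lower at imminent division (37.8% of all, 24.1% higher and 13.7% lower), with a median of -0.17.

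Here too the directions involving pre-S turned when coverage was in the expectation: 37 pairs rose and 596 fell at pre-S (45.7% of all segment pairs called, 15.9% higher and 29.8% lower), and 687 were higher and 46 lower at imminent division than at pre-S (0.23; 36.6% and 18% of all). At imminent division 360 rose and 290 fell on that scale (35.1% and 28.6% of all). With the GC trend removed more fell than rose in both, with 200 pairs higher and 467 lower in imminent division cells (59.6% of all called, 32.3% and 27.3%), then 128 and 214 in pre-S cells (42.9%, 20.6% and 22.3%). The 13 calls at 10 h against 3 h became 6 or 66 when the first or second 3 h library was dropped, 1 or 0 when a 10 h library was, 21 or 20 when an imminent division library was, and 8 when the first pre-S library was. Dropping the first 10 h library gave 291 calls for imminent division, and dropping the first pre-S library gave 285 for imminent division against pre-S. Without the second imminent division library 517 were called at imminent division, 440 of them higher.

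Pairs were also split by compartment, and the contacts given here are medians over pairs, not pooled values. The 848 pairs of deserts both mostly in B had contacts of 1.04, 1.18, 1.14, 1.14, 1.25, 1.13, 1.39 and 1.33. Of them 236 rose and 89 fell at imminent division (250 and 270 with coverage). At pre-S 632 rose and 36 fell, which coverage in the expectation turned to 16 and 562 (median -0.23). The 169 with 1 desert mostly in A had 0.433, 0.465, 0.447, 0.446, 0.542, 0.521, 0.50 and 0.519, all 33 h libraries being above all earlier ones. Of them 101 rose and 14 fell at imminent division, and 72 rose and 22 fell at pre-S (20 and 32 with coverage). The 6 pairs both mostly in A had 1.96, 1.91, 2.14, 2.03, 1.70, 1.80, 1.62 and 1.55, and 4 fell in each.

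Named pairs showed how far single regions moved. The rule named called pairs with the smallest p whose libraries do not overlap in that comparison, so their separation there follows from the choice. Between Ebf1-Clint1 and Tenm2-Mat2b observed/expected contacts rose from 0.0676 and 0.0468 at 3 h to 0.0877 and 0.0957 at 10 h (0.76, FDR 0.0169), then to 0.179 and 0.146 at imminent division (0.81, FDR 4.95e-05). Contacts fell from 3 h to 10 h between Prr16-Ftmt and Csnk1g3-Zfp608 (0.194 and 0.198 to 0.130 and 0.115, -0.69, FDR 0.00466) and between Ppp6c-Lrp1b and Arhgap15-Gtdc1 (0.306 and 0.307 to 0.239 and 0.247, -0.33, FDR 0.0157). Both of these pairs were higher again at imminent division, at 0.244 and 0.211 and at 0.424 and 0.379.

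Marcks-Rfpl4b, beside the gene of a major substrate of protein kinase C, gained contacts with several deserts at 33 h. With Rnf217-Nkain2 it had 0.216, 0.196, 0.219, 0.221, 0.498, 0.442, 0.391 and 0.434, higher by 1.09 (FDR 1.12e-07) at imminent division. With Frk-Amd2 it had 0.258, 0.241, 0.313, 0.282, 0.595, 0.548, 0.458 and 0.486 (0.95, FDR 2.96e-08). With Hace1-Grik2 it had 0.445, 0.403, 0.462, 0.446, 0.736, 0.748, 0.717 and 0.762 (0.71 at pre-S, FDR 2.18e-07, and 0.30 with coverage in the expectation). No 33 h library overlapped an earlier one in any of the 3 pairs, but separation from 10 h in the comparison that named each pair was required by the rule. The other pair named for a rise at pre-S, Gfra2-Gm9195 with Pcdh20-Pcdh9, had 0.343, 0.376, 0.400, 0.391, 0.522, 0.495, 0.594 and 0.627 (0.63, FDR 6.52e-07, and 0.22 with coverage).

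Sdk1-Foxk1, mostly inside the adhesion gene Sdk1 and wholly in A, lost contacts at 33 h. With Auts2-Castor2 it had 1.11, 1.06, 0.993, 0.982, 0.532, 0.581, 0.50 and 0.519, and contacts fell by 0.82 (FDR 9.67e-08) at imminent division. With Tmem132b-Tmem132c it had 1.27, 1.27, 1.1, 1.19, 0.578, 0.659, 0.477 and 0.552 (-1.16 at pre-S, FDR 6.33e-08). Zfhx3-Pmfbp1 with Pard3-Nrp1, 17.7 Mb apart, went from 2.25 and 2.43 at 10 h to 1.43 and 1.49 at imminent division (-0.68, FDR 1.39e-07). The pairs with Khdrbs3-Fam135b carry the caution given above: St3gal1-Zfat had 0.677 to 0.710 with it in the 6 libraries of the other groups, and 0.384 and 0.379 at pre-S (-0.85 against 10 h, FDR 1.64e-08). Without the 5 pairs of that desert, 336 rose and 105 fell at imminent division, and at pre-S 704 and 60.

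The pairs named for lower contacts at imminent division than at pre-S both lay over 10 Mb apart. Lingo2-1700009N14Rik with Grin3a-Cylc2 had 1.53, 1.65, 1.62, 1.63, 1.43, 1.28, 2.06 and 1.92, lower at imminent division than at pre-S by -0.56 (FDR 3.13e-05), and Sqor-Sema6d with Jag1-Btbd3 had 1.56, 1.63, 1.63, 1.76, 1.5, 1.33, 2.11 and 2.03 (-0.55, FDR 3.83e-05). With coverage in the expectation these differences were -0.06 and -0.09.

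Across chromosomes deserts met each other more than their coverage would give. Pooled observed/expected contacts between deserts of different chromosomes were 1.70, 1.69, 1.67, 1.66, 1.63, 1.66, 1.58 and 1.54, lowest in the pre-S libraries. The test set a desert's read pairs with deserts elsewhere against its read pairs with other bins, so the coverage of the desert itself cancels. At 10 h compared with 3 h no desert was called and no segment was (0%), with 23 deserts at an unadjusted p under 0.05. DESeq2 was not run on this measure. At imminent division 6 rose and 8 fell (4.6% of all segments, 1.94% higher and 2.66% lower). At pre-S 2 rose and 211 fell (25.2% of all, 1.1% higher and 24.1% lower), with a median of -0.14 over deserts and -0.06 over all segments. Between the 33 h groups 72 were higher at imminent division and none lower (7.65% of all, 7.52% higher).

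These calls depended on single libraries. With a replicate block most of those at imminent division and between the 33 h groups were lost. At pre-S dropping the first or second 10 h library gave 0 or 1, and dropping any other gave 168 to 265. At imminent division none was left when a 10 h or an imminent division library was dropped, and 74 or 73 were called when a pre-S library was. The 72 calls between the 33 h groups became 47 when the second 3 h library was dropped, 1 with either 10 h library dropped, 0 with either imminent division library dropped and 191 with the first pre-S library dropped. By the same rule, applied after the values were seen, Myc-Gsdmc rose from 0.553 and 0.537 at 10 h to 0.659 and 0.669 at imminent division (0.29, FDR 0.0102) and 0.592 and 0.609 at pre-S (0.14, FDR 0.0208). Gm765-Foxp1 and Marcks-Rfpl4b rose by 0.24 each at imminent division (FDR 0.0106 and 0.0275). Etnk1-Sox5, Ptprn2-Rapgef5 and Sdk1-Foxk1 fell there, by 0.20 (FDR 0.0286), by 0.17 (FDR 0.0354) and by 0.21 (FDR 0.0416).

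The 3 deserts named for a gain lay in A for the most part, and their contacts with other deserts were low or near 1 before. The 3 named for a loss at pre-S were high before. Gm12666-Tusc1 went from 2.66 and 2.62 at 10 h to 2.23 and 2.19 (-0.26, FDR 0.00586), Cbln2-Gm5096 from 2.47 and 2.47 to 2.10 and 1.98 (-0.27, FDR 0.00586) and Cobl-Pom121l12 from 2.44 and 2.39 to 2.07 and 2.00 (-0.25, FDR 0.00871). In each of these 3 deserts both pre-S libraries were below all 6 others, and their separation from the 10 h libraries was required by the rule that named them.

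Insulation was measured at each border between neighbouring bins as the log2 of contacts that cross it over contacts within its 500 kb flanks, both relative to expectation, so a lower score is a stronger border. The 707 desert edges with a score had mean scores of -0.169, -0.156, -0.192, -0.202, -0.120, -0.116, -0.201 and -0.187, below the mean of all 46315 borders (-0.0778, -0.0734, -0.0803, -0.0823, -0.0324, -0.0308, -0.0684 and -0.0642) in every library. The imminent division libraries had the weakest borders in both. Most edges were not at a local minimum of the score (at least 0.2 deep). At 3 h 16.97% of edges were, and at 10 h 17.68%, against 16.08% of all borders in each. At imminent division it was 21.92% against 15.89%, and at pre-S 20.79% against 16.25%. A changed score at an edge is thus not by itself a changed domain border. Scores were lowest at the edge or 50 kb inside it, and highest about 600 kb inside, at 0.057, 0.083, 0.051, 0.037, 0.162, 0.176, 0.078 and 0.074.

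**Figure D5:**
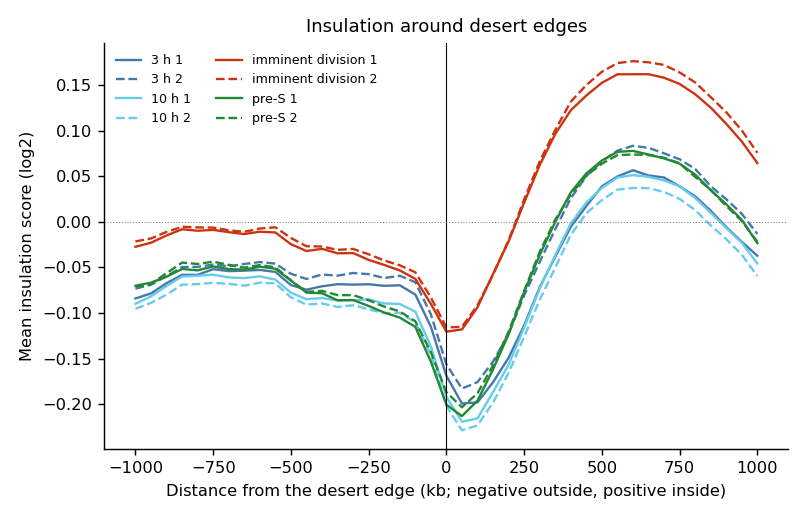
Mean insulation score (log2, lower is stronger) against the distance from the desert edge (kb, positive inside the desert), with 1 line per library, solid for replicate 1 and dashed for replicate 2. All lines dip at the edge, to -0.120 and -0.116 there in the imminent division libraries and to between -0.156 and -0.202 in the others, and the imminent division lines lie highest throughout.

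From 3 h to 10 h 7 edges rose in score and 66 fell (14.2% of all borders, 7.9% higher and 6.27% lower). At imminent division 352 rose and 102 fell (70% of all, 45.7% higher and 24.2% lower), with a median change of 0.09 over edges and 0.07 over all borders. At pre-S 63 rose and 67 fell (27% of all, 15.3% higher and 11.8% lower). Between imminent division and pre-S 305 were higher and 55 lower (54.8% of all, 35% higher and 19.8% lower). The share of edges called was below that of all borders in all 4 comparisons, and in the first the calls were mostly towards stronger insulation. Leaving out libraries lowered the calls at 10 h, to 11 (second 3 h library), 36 (first 10 h library) and 21 (second 10 h library), and flanks of 250 kb gave 11. The calls at pre-S dropped to 74 (second 10 h library), 80 (first pre-S library) and 77 (second pre-S library), and those of imminent division against pre-S to 213 (first pre-S library). Without the second imminent division library it was 406 at imminent division, of which 304 rose.

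The edges named at imminent division were chosen for the smallest p among called edges without overlap of libraries, so their separation follows from that choice. Of all edges named here and below, only those of Map3k7, Ryr2 and Zeb2 were at a local minimum of the score at 3 h. The Map3k7 edge (position 31950021 of chromosome 4), at the gene of the kinase TAK1, was the strongest of the named borders at -2.71, -2.92, -2.94, -2.86, -2.12, -2.31, -2.68 and -2.62, and weakened by 0.67 (FDR 2.09e-15) at imminent division and 0.24 (FDR 0.0129) at pre-S. The Pard3 edge (position 127100180 of chromosome 8), at a gene of cell polarity, went from -1.82 and -1.75 at 10 h to -0.944 and -1.07 (0.77, FDR 4.85e-27) and, at pre-S, -1.36 and -1.44. The edges named for a stronger border had scores above 0. The Jmjd1c edge went from 0.897 and 0.925 to 0.540 and 0.546 (-0.37, FDR 3.91e-17) and the Tgfbr2 edge, at a TGF-β receptor, from 1.05 and 1.06 to 0.753 and 0.739 (-0.31, FDR 1.18e-16). The Map3k7 edge carries 1 CTCF core match, 3700 bases from the border, and the other 3 carry none in their 2 bins.

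Earlier, from 3 h to 10 h, the Marcks edge strengthened from -0.446 and -0.290 to -0.761 and -0.805 (-0.44, FDR 1.15e-12), and it weakened to -0.416 and -0.431 at imminent division (0.36, FDR 1.45e-13). The Phtf2 edge went from 0.271 and 0.0881 to -0.152 and -0.0725 (-0.27, FDR 2.05e-06). Edges that weakened were the Rab3c edge, from -0.0724 and -0.135 to 0.144 and 0.0675 (0.21, FDR 3.71e-05), and the Galr1 edge, from -0.965 and -1.02 to -0.769 and -0.734 (0.25, FDR 7.01e-05). At pre-S the Ryr2 edge, at a calcium channel, weakened from -0.676 and -0.605 to -0.189 and -0.263 (0.41, FDR 6.32e-13), as did the Zfp536 edge (-0.251 and -0.342 to 0.118 and 0.0149, 0.37, FDR 3.96e-10). The Zeb2 edge went from 0.524 and 0.479 to 0.310 and 0.314 (-0.19, FDR 2.8e-06).

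Between the 33 h groups the Neto1 edge differed most, at -0.0169 and -0.0011 in the imminent division libraries against -0.536 and -0.510 in the pre-S ones, with -0.243 and -0.271 at 10 h (0.51, FDR 2.83e-17). The Trhde edge had 0.0340 and 0.0373 at imminent division against -0.379 and -0.326 (0.39, FDR 4.92e-12). The Dhx35 and Slc4a3 edges were stronger at imminent division, with -0.541 and -0.521 against -0.220 and -0.193 (-0.32, FDR 1.83e-08), and -0.481 and -0.50 against -0.286 and -0.228 (-0.23, FDR 3.35e-06).

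Compartments were the first principal component of cis contacts in 100 kb bins, with A as the side richer in gene starts. Of 6085 desert bins 9.98% to 10.7% lay in A in each library, against 60.7% to 62.0% of the others. From 3 h to 10 h 86 moved towards A and 57 towards B (4.37% of all 23791 bins called, 2.41% and 1.96%). At imminent division 416 and 479 did (26.8% of all, 12.4% and 14.4%), at pre-S 328 and 253 (20% of all, 8.89% and 11.1%), and between the 33 h groups 156 were more A at imminent division and 364 more B (15.3% of all, 7.94% and 7.38%). In all 4 comparisons the share of desert bins called (2.35%, 14.7%, 9.55% and 8.55%) was below that of all bins.

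These counts moved with single libraries. At 10 h 71 or 268 bins were called when the first or second 3 h library was dropped, and 17 or 26 when a 10 h library was. At imminent division dropping a 10 h library gave 483 or 508, and dropping one of its own libraries 517 or 501. At pre-S a dropped 10 h library gave 312 or 251, and its own second library 286. For imminent division against pre-S, 253 or 262 were called when an imminent division library was dropped and 315 or 275 when a pre-S library was. Bins whose sign differed between groups in every library were few. Compared with 10 h, 14 desert bins changed to A and 30 to B at imminent division, and 19 to A and 24 to B at pre-S. Of the 17706 other bins, 116 and 182 did so in imminent division cells, against 66 and 170 in pre-S cells. Named after their values were seen, Etnk1-Sox5 had 4 of its 15 bins change to A at imminent division, and Cetn3-Mef2c had 3 of 16 change to B. At pre-S, Bcl11a-5730522E02Rik had 3 of 20 and Pard3b-Nrp2 3 of 10 change to A, and Marcks-Rfpl4b had 2 of 16 change to B.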

How the data were processed

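The authors used diffHic (with cutadapt and bowtie2) on mm10 and removed duplicates, dangling ends and long fragments. They deposited raw counts of read pairs per pair of 50 kb bins, 1 symmetric matrix per library, without scaling. The matrices name no coordinates, so the bins were rebuilt from the MboI fragments of GRCm38. Every matrix has 53357 bins, and the rebuilt set has as many. Bins with over 10% undetermined sequence, or interchromosomal coverage over 4 times or under 1/4 of the median, were left out (756), and the ENCODE list of excluded regions was not used here. The deserts and gene lists were chosen with earlier results of these data known.

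Autosomes outside deserts were divided into pieces of about 30 bins, so that each test ran and was adjusted (Benjamini-Hochberg) over all segments, segment pairs with at least 100 read pairs, borders or bin pairs. Counts were fitted with edgeR 4.0.16 (quasi-likelihood, a one-way layout over 8 libraries, R 4.3.3), with the expected read pairs as offsets, compartments with limma 3.58.1, and DESeq2 1.42.0 was an alternative. Sums and motifs came from Python 3.11.15. Named deserts were, per comparison, the 3 with the smallest p in each direction whose libraries do not overlap (2 for pairs and edges), the 5 longest, those with antigen receptor segments and those beside a B cell gene. Some named by this rule are not reported here. Coverage, GC trend (loess span 0.3), flank width, bin filters, the replicate block and each library left out were alternatives. On simulated counts for imminent division against 10 h, the fit of 1543 segments found 100% of 1.3-fold changes and the fit of single bin pairs 13% of 2-fold changes. The simulated bin pairs varied independently, with no shift shared by many pairs, and simulated segments were also drawn independently of each other. Both shares may therefore not hold for the real libraries, and the 100% is not a measure of power there. The methods call the replicates biological duplicates without saying whether they came from separate animals, so p-values measure the spread between these libraries. Read pairs carry no molecular identifiers, so depth gives counting error only.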

Additional observations from a re-analysis of the deposited data

Results flagged for a closer look

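These results were picked because a change against 10 h differed between the 33 h groups, in opposite directions in imminent division and pre-S cells, with the difference itself called (FDR 5%, edgeR). Inside deserts there was 1, Khdrbs3-Fam135b, with a log2 difference of 0.64 between imminent division and pre-S. Among pairs of deserts there were 19, of which 2 were higher at imminent division and 17 lower. The difference was 1.00 for Myc-Gsdmc with Khdrbs3-Fam135b, where observed/expected contacts were 0.236, 0.269, 0.221, 0.230, 0.401, 0.377, 0.192 and 0.197, and -0.56 for Lingo2-1700009N14Rik with Grin3a-Cylc2. Neither pair kept opposite calls with coverage in the expectation: the first changed by -0.04 (FDR 0.70) at pre-S, and the other by -0.52 and -0.46 at imminent division and pre-S, the same direction. Among edges there were 4, all higher at imminent division, and the differences of the named ones were 0.51 at the Neto1 edge of Timm21-Neto1 and 0.28 at the B3gat1 edge of Eepd1-B3gat1, which was named after its values were seen.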

How the results depend on the processing

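Counts of deserts called are given in the order 10 h against 3 h, imminent division against 10 h, pre-S against 10 h and imminent division against pre-S. They show how the calls moved with the settings, and are not by themselves a result about deserts. Leaving out each library in turn gave 0 to 0, 0 to 269, 0 to 296 and 0 to 1 deserts for contacts inside, 0 to 66, 291 to 517, 574 to 795 and 285 to 663 for pairs, 0 to 9, 0 to 74, 0 to 265 and 0 to 191 between chromosomes, 11 to 74, 323 to 460, 74 to 138 and 213 to 366 for edges, 17 to 268, 483 to 1158, 251 to 769 and 253 to 696 for compartment bins, and 0 to 0, 146 to 2299, 369 to 3923 and 287 to 3028 for bin pairs. No direction of a named desert, pair or edge turned with a library left out, but medians near 0 did, such as that of bin pairs from 3 h to 10 h, which went from -0.04 to 0.07 without the second 3 h library. With bin coverage in the expectation the counts inside were 156 in the first comparison and 312 in the last (24.4% and 71.7% of all segments). For pairs it was 218 in the first (14.2% of all segment pairs). For bin pairs the counts were 17, 5689 and 4604 in all but pre-S against 10 h (0.0152%, 3.82% and 1.68% of all). Removing the GC trend, an alternative chosen after seeing the data, gave 124, 96 and 54 inside in the last 3 comparisons (41.3%, 36.9% and 16.7% of all segments). It gave 120 pairs for 10 h and 342 for pre-S (13.2% and 42.9% of all segment pairs). DESeq2 called 4 and 11 deserts in the first and last comparison, and 15, 86 and 102 bin pairs in the last 3, most in the opposite direction. Over all bin pairs it called 441, 167 and 197. TMM factors gave 5584 bin pairs at imminent division, of 56378 called over all bin pairs. Partner bins without a gene start gave 4 and 133 between chromosomes in the second and last. Flanks of 250 kb gave 11, 224, 36 and 108 edges, and flanks of 1 Mb 149 for 10 h and 283 for pre-S. Compartments in 250 kb bins gave 1186 and 324 in the last 2.

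The replicate numbers gave no pairing that held throughout: same-numbered libraries did not deviate together in every pair of groups (correlations from -0.91 to 0.65). With 2 libraries per group the sign of a correlation depends on the numbering. Whether libraries of different groups were prepared together cannot be told from it. With a replicate block the counts were 112 deserts inside at imminent division, 5 pairs in the first comparison, and 2 and 1 between chromosomes in the second and last. It moved no other count of calls by over 1.5 times.

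Directions that turned included these. With coverage the median change inside was -0.1807 at pre-S and 0.34 for imminent division against pre-S (from -0.09). For pairs it was -0.1949 and 0.2293 in these comparisons, and for bin pairs coverage turned it from 0.27 to -0.16 and from -0.06 to 0.31. Without the GC trend the median for pairs at imminent division was -0.0845. The medians inside at imminent division (-0.0002) and for pairs at pre-S (-0.0097) were then near 0, which is a shift removed and not a direction that turned. The trend was fitted with the deserts included, so a shift that they share through GC content is taken out with it. Of named deserts, Wwox-Maf at imminent division was 0.095 with coverage, and at pre-S Gm765-Foxp1 was 0.023 and Rgs18-Brinp3 -0.463 with coverage, and Rgs18-Brinp3 -0.022 and Inhba-Mplkip -0.073 without the GC trend. Of these, 0.023 and -0.022 lie near 0. The cause was not tested. The 5 longest deserts at pre-S turned too with coverage, and Cntnap5b-Cdh20 also did at imminent division, from 0.18 to -0.20. On simulated counts at this depth 13% of 2-fold changes of single bin pairs were recovered.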
